A study of Mus musculus with 2 samples.

Results

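The genes described here are 10 of the 31053 genes measured in mouse lung cells: the keratins Krt7, Krt8, Krt18 and Krt19, the claudins Cldn3, Cldn4 and Cldn18, and Sfn, Itgb6 and Clu. They were taken by gene symbol, and all 10 were found in both libraries. The cells came from whole lungs at 5 weeks of age and were read by droplet-based 3' RNA sequencing of single cells, in 2 libraries, 1 per genotype, each pooled from 3 mice. The control library came from Lkb1f/f mice, whose Lkb1 gene (symbol Stk11, a kinase that activates AMPK and its relatives) is floxed but not recombined. The Cre library came from Nkx2.1 Cre;Lkb1f/f mice, which carry the same floxed alleles and a Cre recombinase driven from Nkx2-1, a gene active in the lung epithelial lineage. Blood, vessel and connective tissue cells lie outside that lineage. The comparison asks how these genes differed between the genotypes in each kind of cell. Each genotype has 1 pooled library, so no test was made, and the effects of genotype, pool and library cannot be told apart.

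Keratins of simple epithelia form paired filaments, a type II chain (Krt7, Krt8) with a type I chain (Krt18, Krt19). Claudins are membrane proteins that seal tight junctions between epithelial cells, and Cldn18 is the main claudin of the alveolus. When type 2 alveolar (AT2) cells, which make surfactant, turn into type 1 (AT1) cells, the flat cells of gas exchange, they pass through a state known for high Krt8, Cldn4, Sfn and Clu. Sfn encodes 14-3-3 sigma, a p53-induced adaptor protein. Itgb6 encodes the beta 6 integrin chain, which activates latent TGF-beta, and Clu encodes clusterin, a secreted chaperone.

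Counts are unique molecular identifiers (UMIs), each 1 captured transcript. They were tagged at the 3' end, so that a level does not scale with transcript length. Whether different genes were captured equally well was not tested, and levels of different genes are set side by side with that limit. A level (CPM) is the gene's count per 1000000 UMIs, both summed over the cells of a class in 1 library. The control library held 13587 barcodes with 74219499 UMIs and the Cre library 16821 with 81598779; 12455 and 14675 cells were kept, at medians of 3611 and 3250 UMIs. The libraries shared 68 barcodes. Each cell was put in a class by the mean level of the class's markers, none of which is among the 10 genes, and 22 classes had at least 50 cells in both libraries. The AT2-like class held 1458 control and 1786 Cre cells with medians of 10266.5 and 7993 UMIs, and the AT1-like class held 102 and 282 cells with medians of 1127 and 1081 UMIs. The labels were checked against the markers. The 11 AT2 markers summed to 273914 CPM in control and 201112 CPM in Cre AT2-like cells, and the 12 AT1 markers to 47303 and 34497 CPM in AT1-like cells. No marker of either class was at 0 in its own class. The classes are ranges of a score, with 39 control and 84 Cre cells scoring best for AT2 but left unassigned, and 30 and 62 for AT1. Stk11, the targeted gene, stood at 49.1 CPM in control and 29.3 CPM in Cre AT2-like cells, a ratio of 0.597 (0.528 to 0.674); its 3' tags may lie outside the deleted part. The Stk11 ratio was 0.599 (0.349 to 1.05) in AT1-like, 1.08 (0.806 to 1.44) in club-like and 0.872 (0.609 to 1.25) in ciliated-like cells. Each of these intervals spanned a ratio of 1. The median ratio of all measured genes, described below, was 1.09 in AT1-like and 1.54 in club-like cells, above the Stk11 interval of each class. In ciliated-like cells that median was 1.05, inside the Stk11 interval.

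A ratio is the Cre level over the control level. Values in parentheses are exact 95% intervals, which cover counting error only. A gene is called higher or lower in a class when its ratio lies at least 1.5-fold from the median ratio of all genes with 20 or more UMIs over both libraries there. That median ratio was 1.19 in AT2-like, 1.09 in AT1-like, 1.54 in club-like and 1.05 in ciliated-like cells. In AT2-like cells it stood beside a lower level of Sftpc, the surfactant protein C transcript, which took 219097 (control) and 154782 CPM (Cre).

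All 10 are protein-coding genes. On GRCm38 (GENCODE M21), Krt7 (ENSMUSG00000023039) spans chr15:101411043-101430313 on the plus strand, Krt8 (ENSMUSG00000049382) chr15:101996698-102004482 on the minus strand and Krt18 (ENSMUSG00000023043) chr15:102028180-102032027 on the plus strand. Krt19 (ENSMUSG00000020911) spans chr11:100140810-100148665 on the minus strand. Cldn3 (ENSMUSG00000070473) spans chr5:134986214-134987472 on the plus strand, Cldn4 (ENSMUSG00000047501) chr5:134945119-134946934 and Cldn18 (ENSMUSG00000032473) chr9:99689461-99717267, both on the minus strand. Sfn (ENSMUSG00000047281) spans chr4:133600556-133602168 and Itgb6 (ENSMUSG00000026971) chr2:60598292-60722643, both on the minus strand, and Clu (ENSMUSG00000022037) chr14:65968483-65981547 on the plus strand. Krt7, Krt8, Cldn3 and Cldn18 each overlap an RNA gene on the other strand (Gm671, Gm36026, Wbscr25 and Gm16004), and whether counting used the strand is not given in the sources used here.

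The keratin genes Krt7, Krt8 and Krt18 lie together on chromosome 15 of GRCm38, with 23697 bases between Krt8 and Krt18 and 566384 between Krt7 and Krt8. Cldn3 and Cldn4 are neighbours on chromosome 5, with 39279 bases between them. The 250 bases before the RefSeq start are shown for the genes whose levels the results turn on and for Cldn4, the neighbour of Cldn3 with a level far below it (RefSeq, GRCm38.p6). Each is printed 5′ to 3′ on the gene's own strand, with matches to the motifs searched in capitals. The windows are chr15:101412153-101412402 (plus strand) for Krt7, chr15:102004343-102004592 (minus strand) for Krt8, chr4:133602169-133602418 (minus strand) for Sfn, chr5:134985964-134986213 (plus strand) for Cldn3 and chr5:134946935-134947184 (minus strand) for Cldn4.
Krt7: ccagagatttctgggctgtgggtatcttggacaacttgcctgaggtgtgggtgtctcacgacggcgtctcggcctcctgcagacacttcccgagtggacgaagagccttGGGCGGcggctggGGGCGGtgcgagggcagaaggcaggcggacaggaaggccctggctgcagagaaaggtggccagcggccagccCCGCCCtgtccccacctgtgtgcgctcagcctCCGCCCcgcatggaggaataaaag
Krt8: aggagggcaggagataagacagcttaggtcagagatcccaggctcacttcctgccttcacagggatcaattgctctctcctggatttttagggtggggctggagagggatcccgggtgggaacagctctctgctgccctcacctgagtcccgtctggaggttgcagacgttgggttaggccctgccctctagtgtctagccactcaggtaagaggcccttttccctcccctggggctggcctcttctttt
Sfn: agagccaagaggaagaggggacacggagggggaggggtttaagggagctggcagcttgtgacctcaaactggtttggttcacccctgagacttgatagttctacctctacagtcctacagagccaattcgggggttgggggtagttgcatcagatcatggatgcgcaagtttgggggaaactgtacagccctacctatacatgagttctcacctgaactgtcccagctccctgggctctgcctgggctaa
Cldn3: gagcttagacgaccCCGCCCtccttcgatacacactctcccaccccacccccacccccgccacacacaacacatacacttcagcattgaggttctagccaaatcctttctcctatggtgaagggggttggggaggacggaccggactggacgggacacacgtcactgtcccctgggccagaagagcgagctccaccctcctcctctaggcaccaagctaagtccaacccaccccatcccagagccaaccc
Cldn4: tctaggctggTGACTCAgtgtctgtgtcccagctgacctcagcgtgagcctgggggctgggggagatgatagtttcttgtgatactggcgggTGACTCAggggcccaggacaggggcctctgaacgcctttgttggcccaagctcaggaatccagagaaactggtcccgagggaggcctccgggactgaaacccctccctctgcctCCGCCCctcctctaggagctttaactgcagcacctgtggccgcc
The motifs, read on both strands, were AP-1 (TGANTCA), the cAMP response element (TGACGTCA), Sp1 (GGGCGG) and TEAD (GGAATG). The Krt7 window held 4 Sp1 matches, the Cldn3 window held 1, and the Cldn4 window held 2 AP-1 matches and 1 Sp1 match. Those of Krt8 and Sfn held none of these letters, nor did those of Krt18, Cldn18 and Itgb6. Of all 32851 windows of this length, 32.7% held the Sp1, 12.6% the TEAD, 6.75% the AP-1 and 1.55% the cAMP response element letters. These matches are descriptions of sequence. Of the windows printed, that of Krt7 lies inside, and that of Krt8 partly inside, the span that GENCODE M21 gives the gene. Windows were available for 8 of the 10 genes, and Krt19 and Clu had none.

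Krt7, Sfn and Clu were higher in AT2-like cells of the Cre library, and no member was lower. These 3 of 10 called higher compare with 11.7% of the 12655 genes measured in the class, and 0 lower with 9.94%. Among the 5520 genes with 500 or more UMIs, the shares were 5.25% and 6.2%. The median of the 10 log2 ratios lay 0.26 above that of all genes. The plot of ratios by class shows these values with their intervals.

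**Figure D1:**
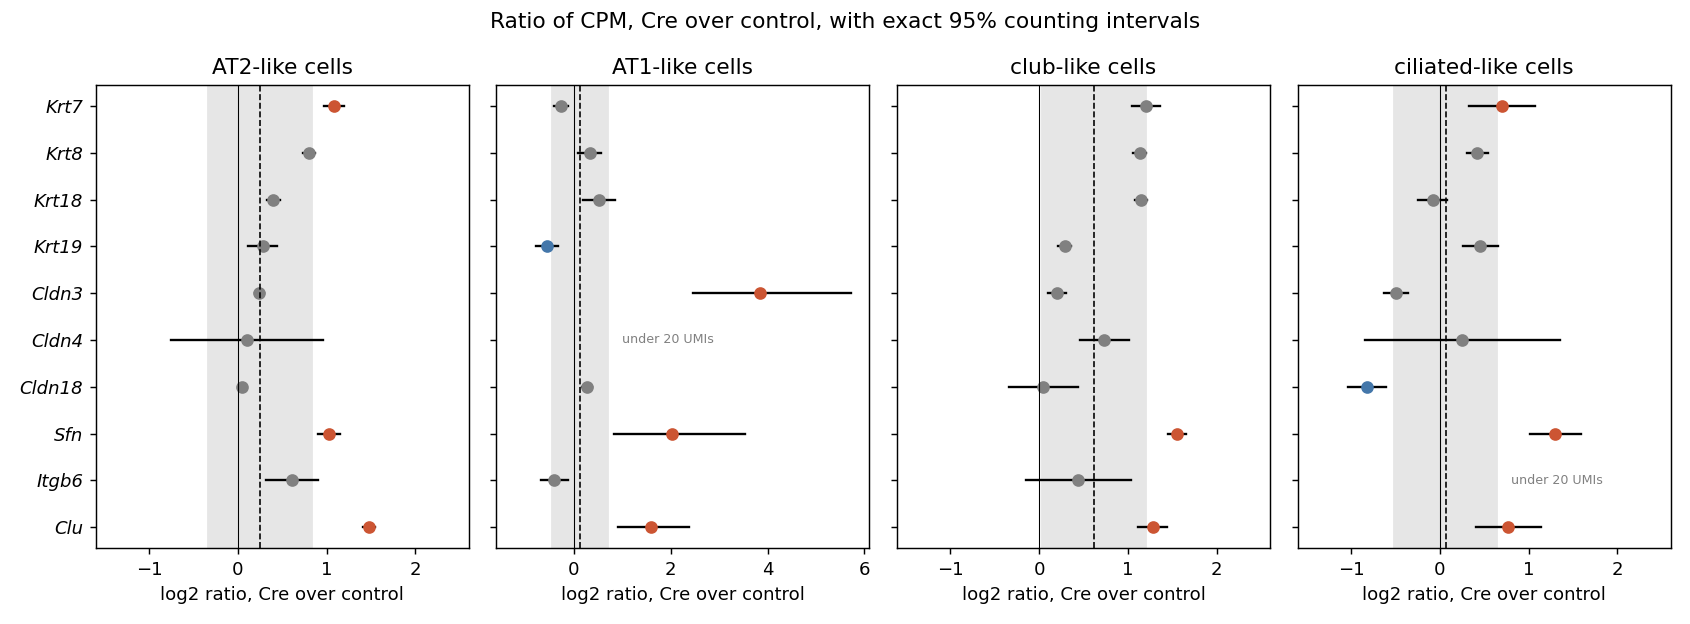
Log2 ratio of CPM, Cre over control, for each gene in 4 epithelial classes, with exact 95% counting intervals (lines). The dashed line is the median of all measured genes and the grey band is 1.5-fold to either side; red points lie above and blue points below the band. Krt7, Sfn and Clu lie above it in AT2-like cells, and the axis of the AT1-like panel is wider because of Cldn3.

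Of the type II keratins, Krt7 stood at 70.8 CPM in control and 149.9 CPM in Cre AT2-like cells, a ratio of 2.12 (1.96 to 2.28). Krt8, the most abundant keratin of these cells, stood at 206 (control) and 359.7 CPM (Cre), a ratio of 1.75 (1.67 to 1.83). Relative to all genes Krt8 was 1.47-fold higher, just under the limit. It passed the limit when cells were thinned to equal depth, when classes were taken from clusters, when the B cell-like level was subtracted and when ratios were not centred. Both type II keratins thus had intervals well above the typical ratio of 1.19, and the type I keratins lay nearer to it. Krt18, the partner chain of Krt8, stood at 184.9 and 244.2 CPM, a ratio of 1.32 (1.26 to 1.39). Krt19 stood at 40.5 and 49.2 CPM, a ratio of 1.21 (1.09 to 1.36). The 4 keratins together made up 85.8% of all keratin UMIs in control and 89.5% in Cre AT2-like cells, and the share of Krt7 alone was 12.1% (11.4 to 12.8) and 16.7% (16.1 to 17.4).

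The claudins showed no call in AT2-like cells. Cldn18 was the most abundant of the 10 genes there, at 747 (control) and 772 CPM (Cre), a ratio of 1.03 (1.01 to 1.06). Cldn3 followed with 447 and 529 CPM, a ratio of 1.18 (1.15 to 1.22), close to that of the typical gene. Cldn4, often named beside Krt8 in the transitional state, gave 24 UMIs in 1458 control cells and 27 in 1786 Cre cells. Its levels of 1.71 and 1.83 CPM overlapped in their intervals with that of Cre T cell-like cells (1.59 CPM). A change in Cldn4 was not detectable at this depth, since the interval of its ratio ran from 0.595 to 1.94. Over all claudin genes, the 3 members held 87.7% of UMIs in control and 85.5% in Cre AT2-like cells.

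Sfn stood at 52.3 CPM in control and 106.6 CPM in Cre AT2-like cells, a ratio of 2.04 (1.87 to 2.23). Over the 17 classes outside the epithelium and mesothelium its median level was 5.01 and 5.49 CPM. B cell-like cells stood apart from these at 55.6 and 51.8 CPM, about the level of control AT2-like cells, while the other 9 genes were at 0.161 to 25.5 CPM in B cell-like cells of either library. Clu rose from 166.6 to 463.7 CPM, a ratio of 2.78 (2.66 to 2.92), the largest of the 10 in AT2-like cells, and from rank 571 to rank 241 among all genes of the class. Itgb6 was low, at 11.4 and 17.3 CPM with a ratio of 1.52 (1.25 to 1.87), and lay within the band.

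Shares of cells with a UMI followed the levels. Each cell was thinned to 1000 UMIs, which kept 1370 control and 1724 Cre AT2-like cells and left out 88 and 62. Clu was found in 11.9% of control cells (10.2 to 13.7) and 21.8% of Cre cells (19.8 to 23.8), and without thinning in 53.4% and 64.1%. Krt8 was found in 16.9% (14.98 to 19.0) and 26.6% (24.5 to 28.7), and without thinning in 64.1% and 75.03%. Krt7 was found in 6.64% (5.38 to 8.09) and 13.1% (11.5 to 14.7), and Sfn in 4.09% (3.102 to 5.28) and 8.47% (7.20 to 9.88); without thinning these were 36.6% and 55.4% for Krt7, and 23.1% and 33.4% for Sfn. None of these 4 pairs of intervals overlapped between the libraries, nor did those of Krt18 thinned alike, at 14.5% (12.7 to 16.5) and 18.6% (16.8 to 20.5). In B cell-like cells (medians of 3077 and 2015.5 UMIs) thinned alike, the shares were 0.593% and 1.28% for Clu, 0.237% and 0.499% for Krt8, and 0.237% and 0.570% for Krt7. For Sfn they were 4.51% and 4.63%, close to its share in control AT2-like cells. Levels in B cell-like cells also differed between the libraries: Krt7 (16 and 23 UMIs), Krt8 (16 and 26) and Cldn18 (51 and 90) were called higher in the Cre library, against 8.1% of all genes there. With the B cell-like level subtracted, Krt7 and Clu were still called higher in AT2-like cells, and Sfn had no ratio because its control level lay below that of B cell-like cells.

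**Figure D2:**
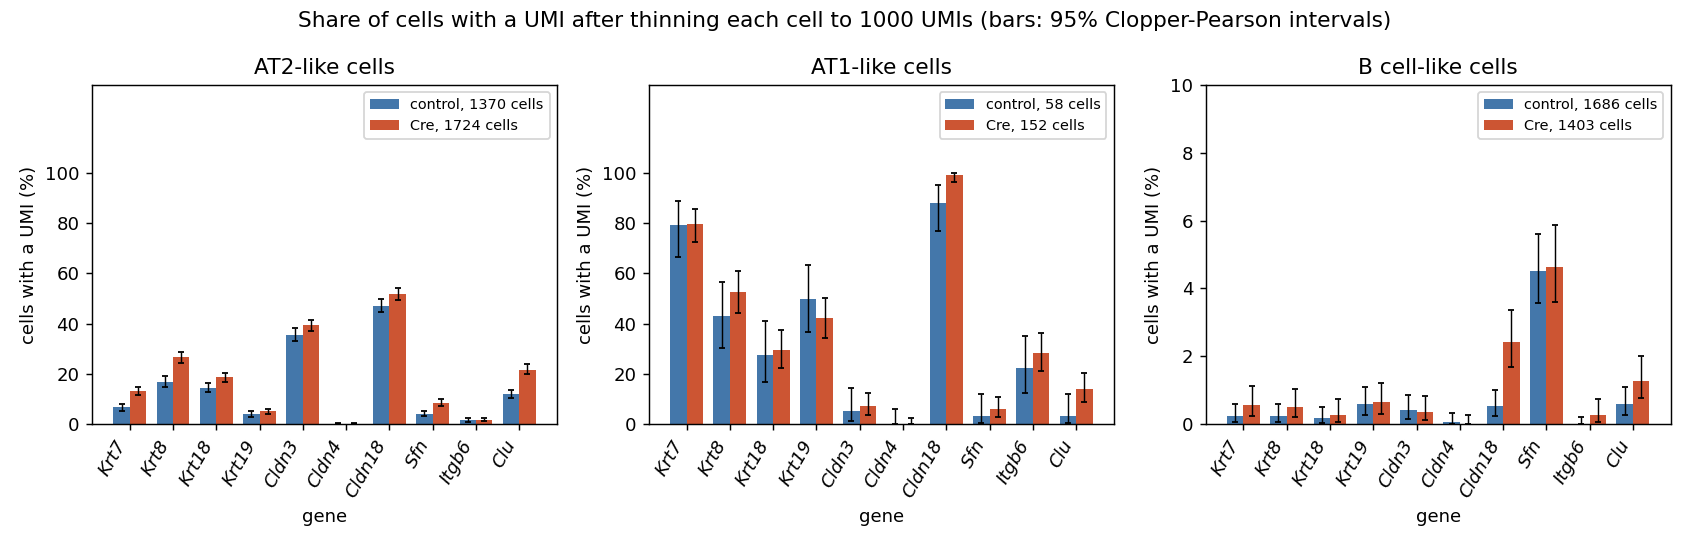
Share of cells with at least 1 UMI of each gene after thinning every cell to 1000 UMIs, in AT2-like, AT1-like and B cell-like cells; bars give the share and lines the 95% Clopper-Pearson interval. The vertical scale of the B cell-like panel ends at 10% and the others run past 100%. Krt7, Krt8, Krt18, Sfn and Clu were found in more Cre than control AT2-like cells, and Sfn alone exceeded 4% in B cell-like cells.

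Some of the members occurred together in AT2-like cells. Each gene's share was read in cells with and without a UMI of each other member that 20 or more cells held. Of 81 such comparisons in each library, 13 in the control and 22 in the Cre library had intervals that did not overlap, all with the higher share beside the other gene, and the rest overlapped. A pair of genes can enter in both directions, so these are not counts of separate pairs. Pairs of other genes were not read, so whether these counts are particular to the members was not tested. In AT1-like cells, 0 of 18 control and 0 of 54 Cre comparisons had intervals that did not overlap, on only 58 and 152 cells. Leaving aside Cldn18 and Cldn3, which most deep AT2-like cells express, 3 or more of the remaining 8 genes were found in 3.58% of control cells (2.66 to 4.70) and 8.76% of Cre cells (7.47 to 10.2), all thinned to 1000 UMIs; this share also moves with the level of each gene alone. In the control library Krt18 was found in 24.6% (19.2 to 30.6) of the 232 cells with a Krt8 UMI and in 12.5% (10.6 to 14.5) of the 1138 without. In the Cre library these shares were 28.6% (24.5 to 33.0) of 458 cells and 15.01% (13.1 to 17.1) of 1266. Sfn was likewise found more often with Krt8 than without, in 9.48% against 2.99% of control cells and 12.9% against 6.87% of Cre cells. Clu was found in 27.9% of Cre cells with Krt8 and 19.5% without, and in the control in 14.7% and 11.3%, where the intervals overlapped. With and without Krt7, the shares of Sfn and Clu overlapped in their intervals in both libraries. In the control these shares were 5.49% and 3.99% for Sfn, and 13.2% and 11.8% for Clu. In the Cre library the Sfn intervals were 8.06% to 16.98% with Krt7 and 6.62% to 9.42% without. Those of Clu in the Cre library were 20.2% to 32.01% with Krt7 and 19.1% to 23.3% without. Cldn18 showed no such pairing with Krt8, at 46.1% and 47.4% in the control and 52.8% and 51.3% in the Cre library.

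In both libraries, all of the members but Cldn4 stood higher in those AT2-like cells that carried more AT1 marker transcripts. Cldn4, on few UMIs, did so in the control only. AT2-like cells of both libraries were ranked together by their AT1 marker score and divided into 4 bins of near-equal size. These held 305 to 388 control and 423 to 506 Cre cells each. Only the members were read by bin, so whether their gradients differ from that of the typical gene was not tested. From the lowest to the highest bin Krt7 ran from 34.6 to 131 CPM in the control and from 95.9 to 237 CPM in the Cre library. That is 3.79-fold (2.94 to 4.94) within the control and 2.47-fold (2.18 to 2.80) within the Cre library. Sfn ran from 23.6 to 96.3 CPM in the control and from 82.6 to 135.5 CPM in the Cre library, or 4.09-fold (3.01 to 5.66) and 1.64-fold (1.42 to 1.90). The gradient of Sfn was thus steeper in the control, where its lowest bin was far below every Cre bin. Of the 9 members other than Cldn4, Cldn3 was the flattest, at 1.44-fold (1.32 to 1.56) and 1.16-fold (1.09 to 1.24). Control Cldn4 gave 0 UMIs in the lowest bin (0 to 1.85 CPM) and 20 UMIs in the highest, at 5.00 CPM (3.06 to 7.73). In the Cre library Cldn4 gave 6 and 9 UMIs, a ratio of 1.70 (0.541 to 5.81), too few to read a gradient.

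Krt7, Krt8, Sfn and Clu had ratios above 1 beyond counting error in every bin, and each had its smallest ratio in the highest bin. The same held for Krt18 and Cldn3, with 1.19 (1.09 to 1.29) and 1.10 (1.03 to 1.17) in the highest bin. Ratios in the bins were not centred on the median of all genes, which was 1.19 over the whole class. Sfn had a ratio of 3.50 (2.57 to 4.87) in the lowest bin and 1.41 (1.23 to 1.61) in the highest. Krt7 had 2.77 (2.14 to 3.64) and 1.81 (1.62 to 2.02), and Krt8 had 2.05 (1.79 to 2.35) and 1.55 (1.44 to 1.67). Clu had ratios of 2.73 (2.36 to 3.18), 3.75, 3.20 and 2.47 (2.29 to 2.67) from the lowest to the highest bin, so that its ends overlapped. Cldn18 stayed between 1.01 and 1.10 in all 4. Cells of the lowest control bin were shallower, with a median of 6591 UMIs against 7807 in the Cre library. The sum of the AT1 markers over the whole class was 2102 CPM in control and 1869 CPM in Cre AT2-like cells.

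**Figure D3:**
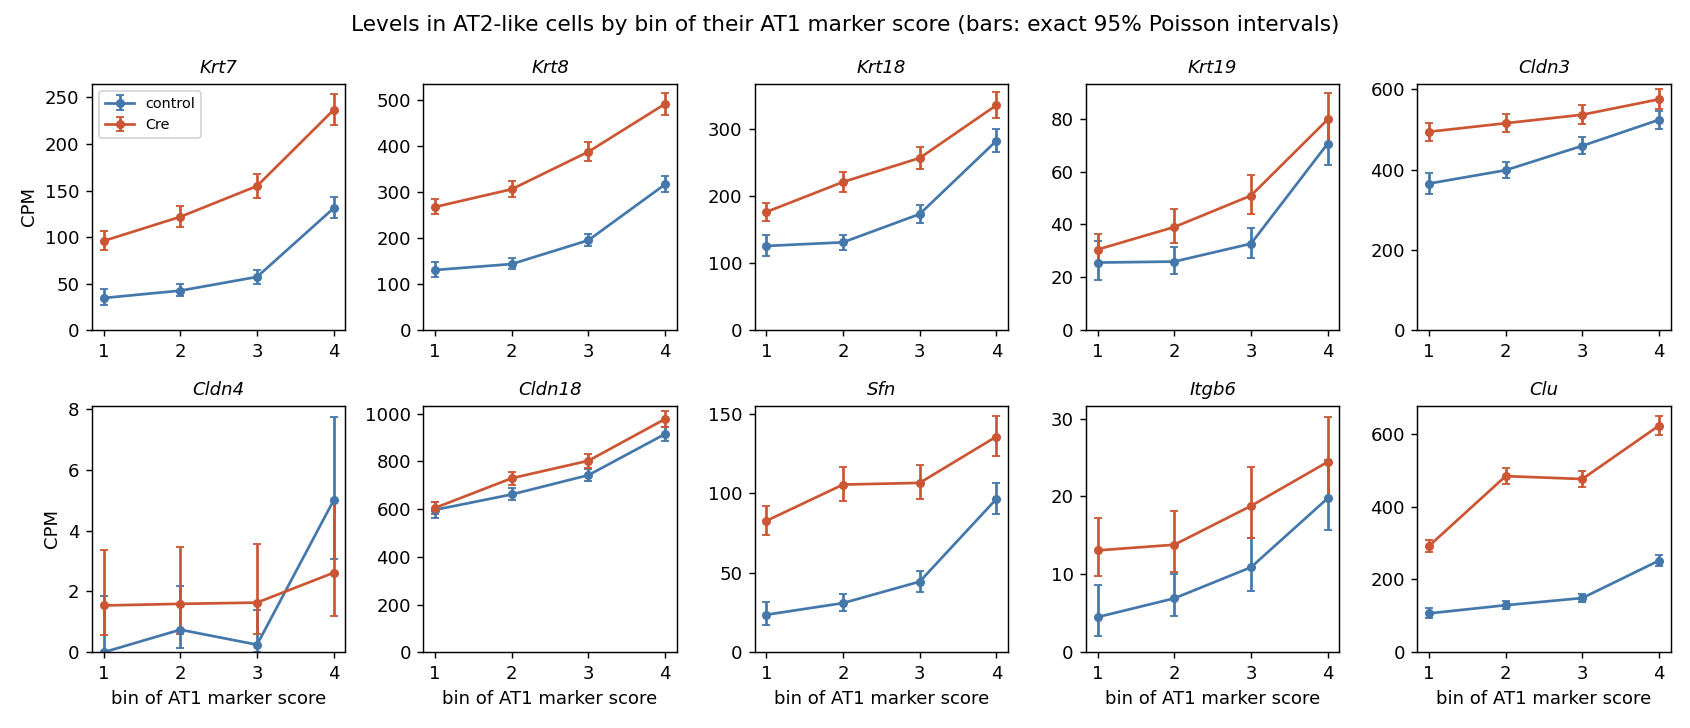
Level of each gene (CPM, vertical axes from 0) in AT2-like cells, by bin of the AT1 marker score from 1 (lowest) to 4 (highest), in the control (blue) and Cre (red) library; bars are exact 95% Poisson intervals. Krt7, Krt8, Sfn and Clu lie higher in the Cre library in each bin, and Krt18 and Cldn3 do so by less, while the lines of Cldn18 lie close together.

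Within the Cre library, Clu was more abundant in AT2-like cells with than without a UMI of Sox9, a transcription factor of distal lung progenitors. In the 836 cells with Sox9 (median 8562 UMIs) it stood at 546 CPM, and in the 950 without (median 7503.5 UMIs) at 375 CPM, a ratio of 1.46 (1.39 to 1.53). The ratio was 1.60 (1.51 to 1.70) among cells with 8000 or more UMIs. Itgb6 had a ratio of 1.32 (1.03 to 1.72) and Cldn3 one of 1.18 (1.12 to 1.23). Krt8 (0.985, 0.933 to 1.04) and Sfn (0.994, 0.899 to 1.10) did not differ beyond counting error, Krt18 had 1.08 (1.01 to 1.15), while Krt7 (0.885, 0.814 to 0.963) and Cldn18 (0.871, 0.839 to 0.904) had intervals below 1. Among cells with 8000 or more UMIs Krt18 had 1.17 (1.08 to 1.27), and the intervals of Krt7 (0.882 to 1.08) and Itgb6 (0.949 to 1.73) spanned 1. Cells without a Sox9 UMI may still express it, since detection depends on depth.

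AT1-like cells held the highest Cldn18, Krt7 and Itgb6 of all 22 classes in both libraries. Between the libraries, Cldn3, Sfn and Clu were called higher in the Cre library and Krt19 lower. These 3 of 9 measured members called higher compare with 16.8% of the 6675 genes measured, and 1 lower with 14.5%, so the count lower is near the background. The class is shallow, with 327376 control and 842317 Cre UMIs in all, and the 3 genes called higher rested on few control UMIs.

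Cldn3 gave 4 UMIs (12.2 CPM) in control and 147 UMIs (174.5 CPM) in Cre AT1-like cells, a ratio of 14.3 (5.46 to 53.1). It was found in 4 of 102 control cells, 3.92% (1.08 to 9.74), and in 49 of 282 Cre cells, 17.4% (13.1 to 22.3). In cells thinned to 1000 UMIs the shares were 5.17% and 7.24% with overlapping intervals, and thinned to 2000 UMIs they were 2.86% and 26.9%. Cldn3 is a claudin of AT2 cells, and the AT2 markers moved with it. The 11 AT2 markers summed to 2743 CPM in control and 6177 CPM in Cre AT1-like cells, or 1.001% and 3.07% of their level in AT2-like cells, and 1 of them, Etv5, was at 0 in the control. Cldn3 reached 2.74% and 33.0% of its AT2-like level, against 11.1% and 16.5% for the AT2 marker with the highest such share. In those AT1-like cells with the smaller share of AT2 markers the sum was 728 (control) and 720 CPM (Cre). There Cldn3 stood at 3.999 CPM (1 UMI in 51 cells) and 124.6 CPM (67 UMIs in 141 cells).

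Sfn gave 6 UMIs (18.3 CPM) in control and 63 UMIs (74.8 CPM) in Cre AT1-like cells, a ratio of 4.08 (1.77 to 11.5). Its level in B cell-like cells, 55.6 (control) and 51.8 CPM (Cre), lay above that of control AT1-like cells. With that level subtracted, Sfn had no ratio in AT1-like cells. Clu gave 19 UMIs (58.0 CPM) and 148 UMIs (175.7 CPM), a ratio of 3.03 (1.87 to 5.17). In the AT1-like cells with fewer AT2 markers Clu stood at 64.0 (control) and 154.3 CPM (Cre), and Sfn at 24.0 and 78.1 CPM.

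Krt19 stood at 773 CPM in control and 527 CPM in Cre AT1-like cells, a ratio of 0.682 (0.583 to 0.799). Its call was lost when cells were thinned, when the B cell-like level was subtracted and when ratios were not centred on the median of all genes. The other keratins lay within the band. Krt7 stood at 1860 and 1539 CPM with a ratio of 0.827 (0.751 to 0.912), Krt8 at 596 and 746 CPM with 1.25 (1.06 to 1.48), and Krt18 at 305.5 and 434.5 CPM with 1.42 (1.14 to 1.79). Krt7 made up 51.1% (48.3 to 54.0) of keratin UMIs in control and 46.1% (44.2 to 48.0) in Cre AT1-like cells, and Krt8 16.4% (14.3 to 18.6) and 22.3% (20.8 to 23.9). Cldn18 was at 3470 and 4185 CPM, a ratio of 1.21 (1.13 to 1.29), and Itgb6 at 510 and 385 CPM, a ratio of 0.754 (0.624 to 0.914). Cldn4 gave 0 control UMIs and 6 Cre UMIs, the latter all in 1 cell.

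The step from AT2-like to AT1-like cells was large for a few members. In the control library Itgb6 was at 11.4 CPM in AT2-like and 510 CPM in AT1-like cells, Krt7 at 70.8 and 1860 CPM, and Krt19 at 40.5 and 773 CPM. Cldn18 was higher in AT1-like cells as well, and Krt8 and Krt18 by less. Cldn3, Sfn and Clu ran the other way in both libraries. Unassigned cells whose best and next-best scores were those of AT2 and AT1 numbered 4 in the control and 26 in the Cre library. They were left unassigned for a low score or a small margin, and were too few for levels of their own.

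**Figure D4:**
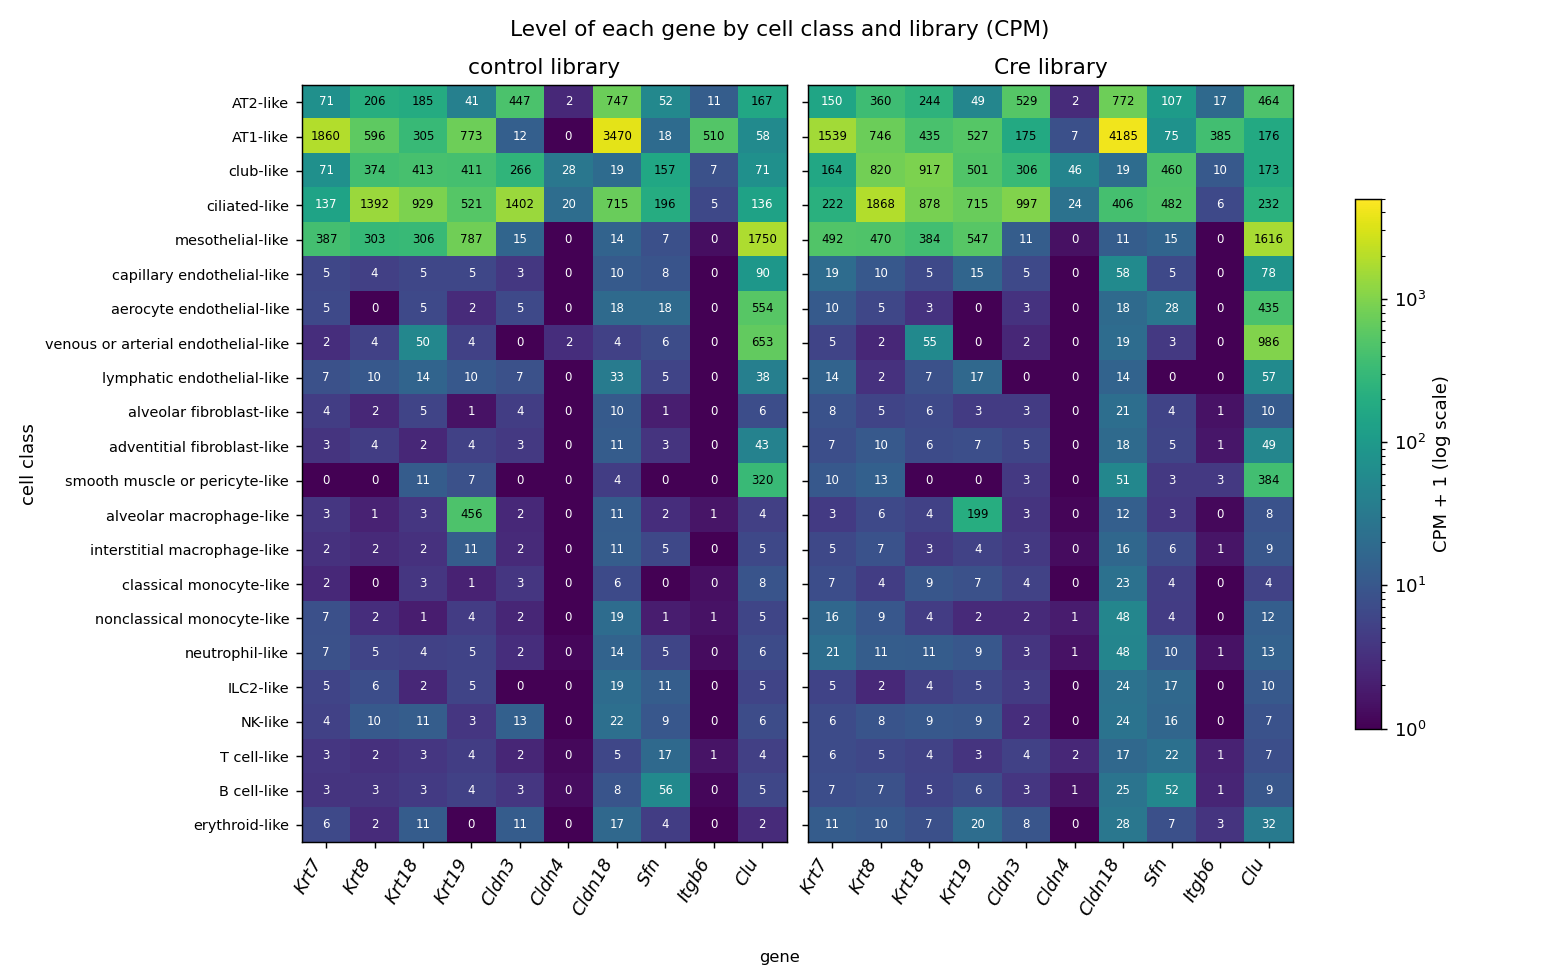
Level of each gene (CPM, printed in each cell and coloured on a log scale) in the 22 classes with at least 50 cells in both libraries, control on the left and Cre on the right. Values print as whole numbers, so that low levels print as 0. The 4 keratins fill the epithelial and mesothelial rows, Cldn3 and Cldn18 are low in the mesothelial row, and Clu also marks endothelial and smooth muscle rows and Krt19 the alveolar macrophage row.

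Krt8, Krt18 and Krt19 were more abundant in both airway classes than in AT2-like cells of the same library. Krt7 was so in ciliated-like cells, but in club-like cells, at 71.2 and 163.9 CPM, it did not differ beyond counting error from AT2-like cells. Club-like cells, which secrete into the airways (195 control and 233 Cre, medians of 39152 and 24094 UMIs), held Sfn at 157 and 460 CPM and Clu at 71.5 and 173 CPM. Markers of the gate moved within the class as well: Muc5b, a mucin gene, stood at 252 and 2546 CPM, Reg3g at 958 and 9105 CPM, Bpifa1 at 3034 and 648 CPM, and all 10 club markers summed to 641908 and 476798 CPM with none at 0. Their part in the results on club-like cells was not tested. The Sfn and Clu ratios of 2.93 (2.73 to 3.15) and 2.42 (2.17 to 2.71) were the 2 called higher of 10, against 13.2% of all genes there; none was called lower, against 12.5%. Krt7, Krt8 and Krt18 had ratios of 2.30, 2.19 and 2.22, inside the band because the typical gene of the class had a ratio of 1.54; without that centring, 6 of the 10 passed. Clu lost its call when cells were thinned. Cldn4 reached its highest level of the 22 classes in club-like cells, at 27.9 and 46.4 CPM, and in the control it did not differ beyond counting error from ciliated-like cells.

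Ciliated-like cells, which move mucus (91 control and 68 Cre), held the highest Krt8 of the 22 classes, at 1392 (control) and 1868 CPM (Cre). They also held the highest Cldn3, at 1402 and 997 CPM. Sfn (196 to 482 CPM, ratio 2.46, 2.02 to 3.005), Clu (135.5 to 231.7 CPM, ratio 1.71, 1.33 to 2.21) and Krt7 (136.9 to 221.9 CPM, ratio 1.62, 1.26 to 2.1002) were called higher, 3 of 9 measured against 12.8% of all genes. Cldn18 was called lower, 1 of 9 against 12.5%, at 715 and 406 CPM with a ratio of 0.567 (0.490 to 0.656). With classes taken from clusters, 1 of these 3, Sfn, was still called. Apart from the losses named for Clu, Sfn and Clu were the members called higher in all 4 epithelial classes.

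Mesothelial-like cells, the outer lining of the lung (205 control and 190 Cre), held the highest Clu, at 1750 and 1616 CPM. In the control they also held the highest Krt19, which did not differ beyond counting error from that of AT1-like cells. Krt8 was called higher there, at 303 and 470 CPM (ratio 1.55, 1.42 to 1.70), and so was Sfn, at 7.05 and 14.8 CPM from 19 and 33 UMIs. These 2 of 8 measured compare with 7.6% of all genes, and 0 lower with 8.79%. Krt19 stood at 787 and 547 CPM, a ratio of 0.695 (0.647 to 0.746), within the band.

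In the 17 classes outside the epithelium and mesothelium most members were low, but they were often called higher in the Cre library. Over 78 pairs of a member and a class with 20 or more UMIs, 37 were called higher and 6 lower, against 12.9% and 11.8% of all genes over the same classes. Those called higher had at most 90 UMIs in either library. The shares of all genes cover every gene with 20 or more UMIs and were not taken at like counts. The pairs also repeat the same genes over the same libraries, so they are not separate observations. Neutrophil-like cells had 6 of 7 measured members higher (against 14% of all genes), alveolar macrophage-like cells 5 of 8 (11.2%), alveolar fibroblast-like cells 4 of 6 (12.8%), adventitial fibroblast-like cells 4 of 8 (10.7%), T cell-like cells 4 of 8 (10.8%) and nonclassical monocyte-like cells 3 of 3 (9.9%). These classes lie outside the Cre lineage. Krt7, Krt8, Cldn3, Cldn4 and Itgb6 reached at most 20.96 CPM in any of them. Krt19 and Krt18 each passed 50 CPM in 1 of these classes. Alveolar macrophage-like cells held it at 456 (control) and 199 CPM (Cre), a ratio of 0.435 (0.409 to 0.463), while Krt8 stood at 1.23 and 5.63 CPM there. It was the 1 member called lower of 8 measured there, against 8.64% of all genes. In the main macrophage cluster Krt19 stood at 476 CPM (461 cells) and 207 CPM (830 cells), and a further cluster of 37 cells, all of the Cre library, held 20.9 CPM. Krt18 reached 50.1 and 55.4 CPM in venous or arterial endothelial-like cells, where Krt8 was at 4.17 and 1.58 CPM. Clu was abundant in the same endothelial class, at 653 and 986 CPM (ratio 1.51, 1.32 to 1.74), in aerocyte endothelial-like cells at 554 and 435 CPM, and in smooth muscle or pericyte-like cells at 320.5 and 383.7 CPM. Cldn18 was between 12.3 and 57.6 CPM in all 17 classes of the Cre library and between 3.64 and 33.5 CPM in the control.

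Related genes were read from lists chosen with earlier results of these data known, by the same 1.5-fold rule. The shares of all genes in AT2-like cells, 11.7% higher and 9.94% lower, apply to these counts. Of the other keratins, 4 were measured in AT2-like cells and none was higher; Krt79 was lower on 19 and 13 UMIs. Of 8 other claudins, Cldn10 was higher (2.27 and 16.1 CPM) and Cldn8 and Cldn34c1 were lower, all at low levels. Of 28 other junction genes, 1 was higher and 2, Ppl and Pof1b, were lower. The 1 higher was Cgnl1, which encodes paracingulin of the junction plaque, at 60.1 and 108.6 CPM with a ratio of 1.81 (1.66 to 1.97). None of the 6 other 14-3-3 genes, the relatives of Sfn, passed in either direction.

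Of 30 other genes linked to the transitional state, 10 were higher and 6 were lower in AT2-like cells, against the same 11.7% and 9.94%. Areg, which encodes the EGF receptor ligand amphiregulin, stood at 98.3 and 451 CPM (ratio 4.59, 4.33 to 4.87), Cd24a, a surface glycoprotein gene, at 27.6 and 110.8 CPM, and Fn1, the fibronectin gene, at 7.32 and 63.2 CPM. S100a6, a calcium-binding protein gene, was lower at 329.5 and 100.7 CPM (ratio 0.306, 0.288 to 0.324), as was Cryab, a small heat shock protein gene (0.665). Members of this list therefore moved both ways. Of 18 integrin and TGF-beta genes 8 were higher and 0 lower, and none of the 8 reached 50 CPM; Tgfbi was the most abundant of them at 18.9 and 48.9 CPM.

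The shares of all genes in AT1-like cells, 16.8% higher and 14.5% lower, apply to the next counts, and 5 of 27 is near them. In AT1-like cells, 5 of 27 transitional state genes were higher (Fn1, Ccnd1, Areg, Cd24a and Emp1) and 5 lower (S100a6, Tpm2, Ankrd1, Ier3 and Gdf15). Of these, Cd24a (7 and 37 UMIs), Emp1 (4 and 18) and Gdf15 (10 and 11) had intervals that spanned 1, and Areg gave 0 and 42 UMIs. Fn1 (15.3 and 89.0 CPM) and Ccnd1, the cyclin D1 gene (18.3 and 60.5 CPM), were higher, while S100a6 (8336 and 3844 CPM), Tpm2, a tropomyosin gene (140.5 and 46.3 CPM), and Ankrd1 (97.7 and 35.6 CPM) were lower. Of 25 junction genes 2 were higher, Cgnl1 (51.9 and 109.2 CPM) and Ctnnb1, the beta-catenin gene (367 and 603 CPM), and 3 were lower, F11r, a junctional adhesion molecule gene (718 and 499 CPM), Mpp5 (400.2 and 275.4 CPM) and Pkp3. Of 3 other claudin genes, 1 was lower, Cldnd1 (103.9 and 64.1 CPM). Of 13 integrin and TGF-beta genes 2 were higher (Itga6 and Tgfbr1, on 2 and 4 control UMIs) and 3 lower, Itga3 (412 and 267 CPM), Tgfb2 (293 and 178 CPM) and Tgfb1. The intervals of Pkp3 (14 and 20 UMIs), Tgfb1 (15 and 25) and Tgfbr1 (4 and 26) spanned 1.

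Likeness across classes was Pearson's r of log2(CPM + 5) over 46 sums, 1 per class and library with at least 50 cells, among 8849 genes that reached 50 CPM in any sum. The sums share libraries and the non-epithelial ones share low levels, so r is a description. Krt18 was most like Krt8 (r = 0.94), Krt7 most like Cgn, which encodes cingulin (0.97), and Krt8 most like Prr15l (0.96). Krt19 was also most like Cgn, at 0.85. Among the keratins r ran from 0.81 (Krt19 with Krt7 and with Krt18) to 0.94, and Cldn3 had 0.87 with Krt8 and 0.84 with Krt18. Cldn3 was most like Myo5c (0.95), Cldn18 most like Myh14 (0.92), Itgb6 most like Scnn1g, an epithelial sodium channel subunit gene (0.96), Sfn most like Gpx2 (0.85) and Clu most like Bcam (0.88). Next in likeness came Clic3 and Cxadr for Krt7, Smim22 and Ripk4 for Krt8, Wfdc2 and Baiap2l1 for Krt18, and Krt8 and Fxyd3 for Krt19. These were Elf3 and Ank3 for Cldn3, Npw and Mtcl1 for Cldn18, A2ml1 and Tspan1 for Sfn, Wnt3a and Pof1b for Itgb6, and Lurap1l and Cdc42bpa for Clu. Cldn4 reached 50 CPM in none of the sums.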

How the data were processed

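The files hold raw counts of UMIs for each gene and barcode, whole numbers that the authors deposited without normalization, per the file headers. The submitters' processing notes name Cell Ranger 3.1.0, STAR and mm10, and the matrix header gives 3.0.0 as the software version. The gene annotation and strand setting are not given in those sources. Of 31053 gene identifiers, 30934 matched GENCODE M21, the source of positions.

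Barcodes needed at least 200 genes, at least 500 UMIs and no more than 20% mitochondrial UMIs. Scrublet (scanpy 1.11.5, expected doublet rate 0.06) marked 420 barcodes (3.09%) of the control and 454 (2.70%) of the Cre library as doublets, which were removed. For each of 28 classes a cell's score was the mean of its markers' log-normalized levels, each divided by its mean in the 100 highest cells. A cell took the class with the highest score at 0.3 or more and 0.1 above the next. These limits were set after seeing the data, and 13.0% of control and 17.9% of Cre cells stayed unassigned. UMIs were summed per class and library. Ratios carry exact conditional Poisson 95% intervals and shares Clopper-Pearson 95% intervals (scipy 1.17.1), and the ratio script was tested on simulated data.

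All 10 members were named. Of each list, genes past the 1.5-fold limit with at least 50 UMIs and 50 CPM in the higher library were named, up to 3 each way in AT2-like and AT1-like cells, ranked by the interval bound nearest 1. A gene that this rule selects is not reported here. For likeness the 3 genes with the highest r were named. Krt79, Cldn10, Cldn8, Cldn34c1, Ppl, Pof1b (as a lower gene), Tgfbi, Areg, Cd24a, Emp1, Ier3 and Gdf15 (in AT1-like cells), Pkp3, Itga6, Tgfbr1 and Tgfb1 fall outside that rule and were chosen after their values were seen. The members and gene lists were chosen with earlier results of these data known.

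Alternatives were classes from Leiden clusters (resolution 1.0, 30 components, 15 neighbours, leidenalg 0.10.2), a gate margin of 0.2, doublets kept, a mitochondrial limit of 10%, cells thinned to 1000 UMIs, subtraction of the B cell-like level, no centring, edgeR 4.0.16 TMM factors in place of the median, and no minimum count.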

Additional observations from a re-analysis of the deposited data

How the results depend on the processing

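No called ratio in the 4 epithelial classes reversed under any alternative run. Over 9 alternatives, 107 of 113 calls were kept and 19 were gained. Clu and Krt7 in AT2-like cells, Clu in AT1-like, Sfn in club-like and ciliated-like and Cldn18 in ciliated-like cells were called under all 9; Sfn in AT2-like cells was called in all 8 and Cldn3 and Sfn in AT1-like cells in all 8 and all 7 that measured them. Members higher in AT2-like cells numbered 5 with clusters (Krt8 and Cldn4 added) and 5 without centring (Krt8 and Itgb6 added), against 3. In AT1-like cells thinning left 1 higher and 0 lower of 7 measured; those lower numbered 0 with free RNA subtracted, 0 without centring and 2 (Itgb6 added) with no minimum count. In club-like cells 1 (Cldn18) was lower at the 10% mitochondrial limit, and without centring 6 were higher, with a median of 0.93. In ciliated-like cells clusters left 1 higher with a median of 0.14, and the wider margin gave 2 lower (Cldn3 added). Thinned to 2000 UMIs, cells with 3 or more of the 8 genes were 9.32% (control) and 21.9% (Cre) in the AT2-like class, and 85.7% and 79.6% in the AT1-like class, which held 44.8% and 48.0% at 1000 UMIs. The causes of these changes were not tested.

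Depth limits Cldn4 in the alveolar classes, Itgb6 in ciliated-like cells, where it had 4 UMIs in each library, and Cldn3 and Sfn in control AT1-like cells. No paired analysis was possible because the 2 genotypes share only replicate number 1.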

Other observations

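Basal-like and neuroendocrine-like airway cells, too few for the comparison, held many of these transcripts. Basal-like cells (5 control and 31 Cre) gave 625 UMIs of Sfn, 478 of Krt19, 434 of Krt8 and 325 of Krt18 in the Cre library. In the control these were 25, 24, 10 and 9. The class held 335743 UMIs in all in the Cre library and 20806 in the control, so these counts do not compare the libraries. Neuroendocrine-like cells (12 and 22) held Krt18 at 3179 (control) and 1153 CPM (Cre) and Cldn4 at 798 and 243 CPM, above every class compared, while Itgb6 had no UMI there in either library. Krt79, a keratin gene that is also among the macrophage markers used for the gate, stood beside Krt19 in the main alveolar macrophage cluster, at 416 (control) and 36.8 CPM (Cre).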
